A study of Mus musculus with 10 samples.

Results

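The 10 genes described here are 8 of the mouse Toll-like receptors (Tlr1, Tlr2, Tlr4, Tlr6, Tlr7, Tlr8, Tlr9 and Tlr13), the lipopolysaccharide co-receptor gene Cd14 and the adaptor gene Myd88. They were taken by symbol from a table of 51456 Ensembl gene IDs, and all 10 were present once. The cells came from mouse bone marrow and were sorted by surface proteins before RNA sequencing. The LSC-labelled group held 5 libraries of leukaemia stem cells. Their donors were AML mice, in which the fusion gene MLL-AF9 drives acute myeloid leukaemia, and the sort kept cells with c-Kit, CD16/32 and CD34 but no lineage markers and no Sca-1. The HSC-labelled group held 5 libraries of haematopoietic stem cells from wild-type C57BL/6J mice, where the sort kept CD150-bearing, CD48-free cells of the LSK fraction (no lineage markers, with Sca-1 as well as c-Kit). The genotype field reads wild-type for both groups. The sources used here do not give how the fusion gene was brought in, the host, age or sex of the mice, or whether each library came from its own animal. The p-values therefore measure spread between libraries, which may be technical. Values are FPKM, that is, fragments per kilobase of gene scaled to the total mapped.

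Most haematopoietic stem cell markers ran against the labels, and the genes of the sorted proteins were mixed. Of 7 such genes, Ly6a, Kit, Slamf1 (CD150) and Cd34 were higher in the LSC-labelled libraries, Fcgr3 and Fcgr2b (CD16/32) were lower and Cd48 was not called. Cd34, which the LSC gate selects for, went with the labels, at 91.3 ± 3.60 FPKM in the LSC-labelled and 27.7 ± 13.3 FPKM in the HSC-labelled libraries, while Fcgr3 and Fcgr2b of the same gate and Ly6a and Slamf1 of the HSC gate went against them. Ly6a, which encodes Sca-1, averaged 74.2 ± 24.8 FPKM (SD, n = 5) in the LSC-labelled libraries and 0.920 ± 0.917 FPKM (n = 5) in the HSC-labelled ones, and Hoxa9, a target of MLL fusions, averaged 7.06 ± 0.945 FPKM in the LSC-labelled and 57.0 ± 7.58 FPKM in the HSC-labelled libraries. Of 5 haematopoietic stem cell markers tested 4 were higher in the LSC-labelled libraries. Among all these genes Procr, Hlf, Slamf1 and Ly6a passed the filter of 1 FPKM in 5 libraries only through the LSC-labelled libraries. In the HSC-labelled group Ly6a reached 1 FPKM only in replicate 3, at 2.52 FPKM. Every direction below is therefore between libraries as labelled, and disease and sort gate cannot be told apart. In bulk samples, fewer cells of a type and less RNA per cell cannot be told apart either. Across all genes, limma tested 13431 and called 41.0% of them, 3654 with a higher and 1859 with a lower level in LSC-labelled libraries. The median log2 fold change of all genes was 0.11 on the deposited values and -0.0082 with median-of-ratios scaling, which moved the share of higher calls to 50.8%, against 66.3% on the deposited values.

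Toll-like receptors are the membrane receptors by which cells sense molecules of microbes. Those on the cell surface bind lipids and lipoproteins, while those in endosomes bind nucleic acids, and nearly all of them signal through the adaptor Myd88 to NF-kappa-B and interferon regulatory factors. In bone marrow they are best known from monocytes, macrophages, neutrophils and dendritic cells, and stem and progenitor cells also carry some of them.

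All 10 genes passed the filter of 1 FPKM in at least 5 libraries. Limma called 5 of them lower in the LSC-labelled libraries (Tlr1, Tlr2, Tlr6, Tlr13 and Cd14), where 13.8% of all genes tested were called lower, and 0 higher (also 0 at an unadjusted p under 0.05), where 27.2% were called higher and 41.0% in either direction. Between the groups, values did not overlap for 4 of them, all lower in the LSC-labelled libraries, against 9.80% of all genes with no overlap in that direction. Tlr4, Tlr7, Tlr8, Tlr9 and Myd88 were not called. The median log2 fold change of the 10 genes was -0.43, beside 0.11 for all genes. The count of 5 rested in part on 2 genes: Tlr2 and Tlr13 lost their calls without LSC-labelled replicate 5 and without the filter on low values, which left 3, while without HSC-labelled replicates 3 and 4 a total of 8 genes were lower.

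**Figure D1:**
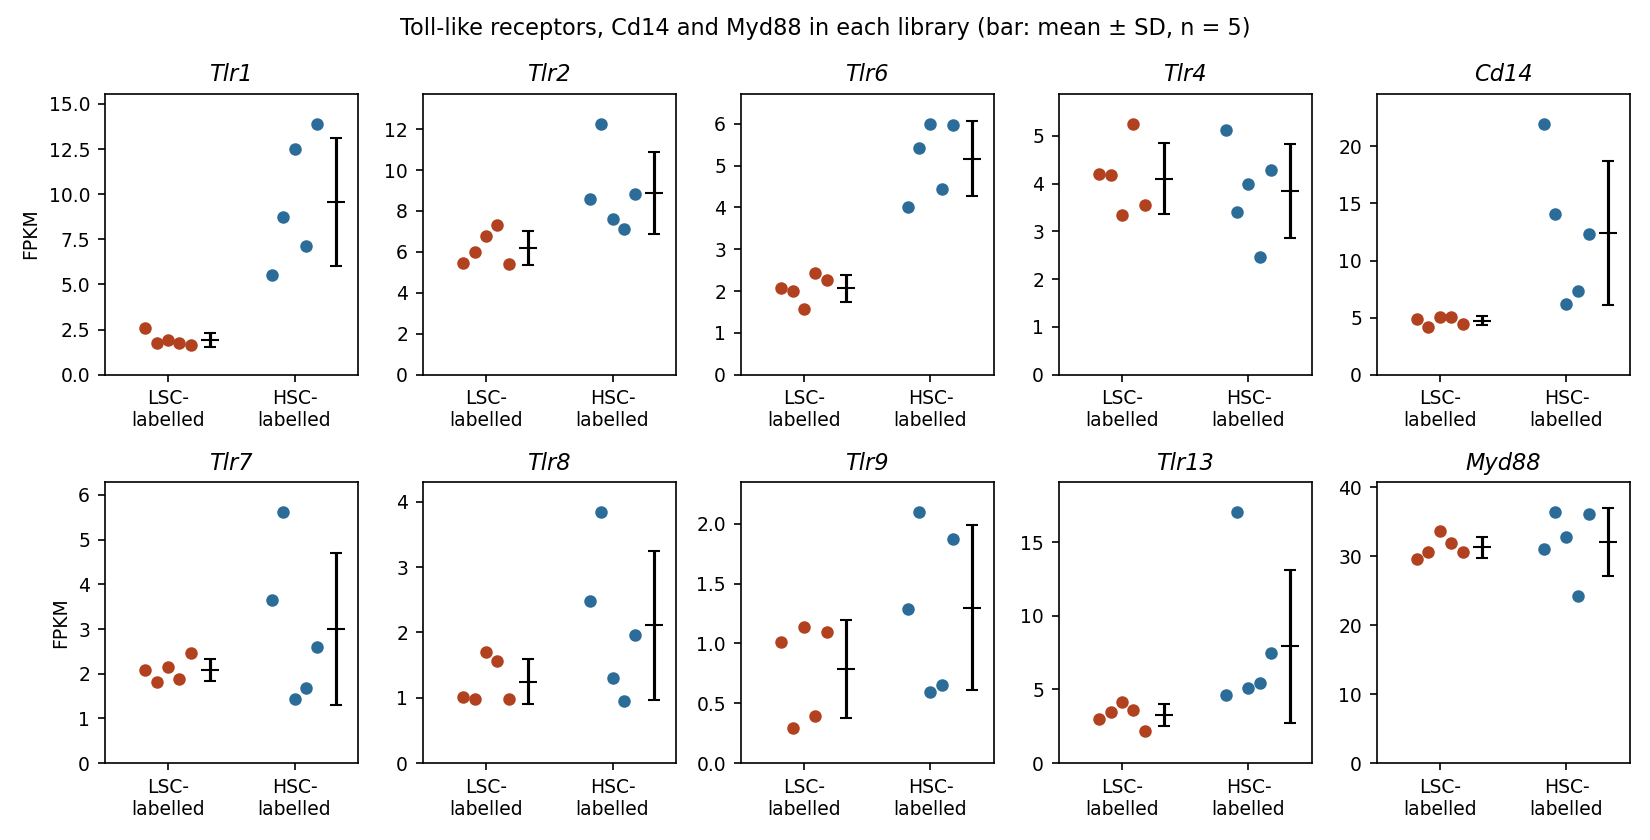
FPKM of each gene in each library (dots, in the order of the replicate numbers), with LSC-labelled libraries on the left and HSC-labelled libraries on the right of each panel and the mean ± SD (n = 5) beside them. Tlr1, Tlr6, Tlr13 and Cd14 show no overlap between groups, and the HSC-labelled dots spread widely for Tlr7, Tlr8, Tlr9, Tlr13 and Cd14.

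Tlr1 and Tlr6 encode the surface receptors that pair with Tlr2, Tlr1 for triacylated and Tlr6 for diacylated lipopeptides. They are neighbours on chromosome 5 on the minus strand, Tlr1 (ENSMUSG00000044827) at 64924679 to 64933563 and Tlr6 (ENSMUSG00000051498) at 64952031 to 64960097 (mm10, GENCODE M21). Tlr1 had 2.60, 1.75, 1.90, 1.78 and 1.63 FPKM in the LSC-labelled libraries, against 5.54, 8.72, 12.5, 7.15 and 13.9 FPKM in the HSC-labelled ones. Every LSC-labelled value lay below every HSC-labelled one. The means were 1.93 ± 0.385 FPKM in the LSC-labelled and 9.56 ± 3.54 FPKM in the HSC-labelled libraries (SD, n = 5 each), and the log2 fold change on the log2(FPKM + 1) scale was -1.79 (SE 0.211, limma adjusted p = 6.903e-05). It was the largest difference among the 10 genes, and it was called in all 21 alternatives, with values of -2.24 to -1.65.

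Tlr6 followed the same pattern with a smaller difference. It stood at 2.07, 1.99, 1.58, 2.44 and 2.26 FPKM in the LSC-labelled libraries, against 4.01, 5.41, 6.00, 4.44 and 5.97 FPKM in the HSC-labelled ones, again with no overlap. Its log2 fold change was -1.001 (SE 0.124, limma adjusted p = 0.0001003), and it was called in all 20 alternatives that tested it. Its HSC-labelled values varied least of the 8 receptors, with a coefficient of variation of 17.5%.

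The coding sequences of Tlr1 and Tlr6 are near-identical over part of their length, which bears on how far their separate levels can be trusted. Of the 50-base windows of the longest coding transcript of Tlr1 15.3% occur unchanged in that of Tlr6, and 12.5% the other way round, while no other pair among the 10 genes shares such a window. The longest shared run is 229 bases. It is shown with 30 bases on each side, at chr5:64925507-64925795 for Tlr1 and chr5:64953798-64954086 for Tlr6 (mm10, minus strand, coding exon, from GENCODE M21 transcripts), with the 2 bases that differ in capitals:
Tlr1: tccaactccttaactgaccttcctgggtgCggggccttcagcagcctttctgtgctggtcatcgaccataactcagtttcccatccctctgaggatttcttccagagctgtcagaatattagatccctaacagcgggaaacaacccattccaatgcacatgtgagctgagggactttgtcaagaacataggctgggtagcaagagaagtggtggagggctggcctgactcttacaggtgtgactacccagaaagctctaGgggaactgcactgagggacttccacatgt
Tlr6: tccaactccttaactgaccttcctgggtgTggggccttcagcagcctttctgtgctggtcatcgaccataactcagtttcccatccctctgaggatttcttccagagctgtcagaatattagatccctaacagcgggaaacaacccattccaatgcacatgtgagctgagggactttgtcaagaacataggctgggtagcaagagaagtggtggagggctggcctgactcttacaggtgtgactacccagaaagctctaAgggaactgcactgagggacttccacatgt
Reads from such a stretch cannot be assigned to 1 gene, so part of each level may be shared, and the sources used here do not say how the authors' counting treated them. The windows that are not shared make up most of both transcripts.

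RefSeq promoter windows (GRCm38.p6, 250 bases before to 50 after a start) matched 7 of the 10 genes, with 9 starts. They were searched on both strands for GAGGAA and GGAAGT, which both hold the GGAA core bound by the myeloid factor PU.1 and other ETS factors. At least 1 start of 4 of the 7 genes held GAGGAA (Tlr1, Tlr8, Tlr9 and Tlr13) and of 5 held GGAAGT (Tlr1, Tlr2, Tlr6, Tlr9 and Myd88). Of all 32851 windows, 28.3% hold GAGGAA and 23.8% GGAAGT. These shares are per window, while the counts are per gene, and Tlr1 and Tlr6 had more than 1 window each. The counts and the shares are therefore not like measures. The windows of the outermost starts of Tlr1 and Tlr6, the neighbours that fell together, are shown with the matches in capitals, at chr5:64933509-64933808 and chr5:64959999-64960298, both on the minus strand:
Tlr1: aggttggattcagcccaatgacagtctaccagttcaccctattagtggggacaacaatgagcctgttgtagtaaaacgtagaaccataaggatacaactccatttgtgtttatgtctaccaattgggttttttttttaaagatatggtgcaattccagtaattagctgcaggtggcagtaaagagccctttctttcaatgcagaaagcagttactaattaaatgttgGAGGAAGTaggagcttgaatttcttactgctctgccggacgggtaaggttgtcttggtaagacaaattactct
Tlr6: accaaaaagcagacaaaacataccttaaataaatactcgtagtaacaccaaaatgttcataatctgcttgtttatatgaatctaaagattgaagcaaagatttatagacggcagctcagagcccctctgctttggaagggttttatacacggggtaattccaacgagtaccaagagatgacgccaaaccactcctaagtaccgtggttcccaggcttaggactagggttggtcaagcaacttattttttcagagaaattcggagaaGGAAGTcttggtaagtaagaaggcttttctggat
In the Tlr1 window both forms overlap in 1 run just before the start, and in the Tlr6 window the single match lies just after it. The matches are letters in a window and were not tested as binding sites.

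Tlr2, the common partner of Tlr1 and Tlr6, fell by less than either. Tlr2 (ENSMUSG00000027995, chromosome 3, 83836272 to 83841767, minus strand) had 5.46, 6.01, 6.76, 7.33 and 5.40 FPKM in the LSC-labelled libraries, against 8.57, 12.3, 7.61, 7.13 and 8.83 FPKM in the HSC-labelled ones. The groups overlapped in 1 place, where LSC-labelled replicate 4 lay above HSC-labelled replicate 4. The log2 fold change was -0.44 (SE 0.138, limma adjusted p = 0.0240), and the call was lost in 6 of 21 alternatives, with adjusted p between 0.003104 and 0.0716.

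Within each library, the balance of these 3 genes differed between the groups. The log2(FPKM + 1) of Tlr1 minus that of Tlr2 averaged -1.30 ± 0.276 in the LSC-labelled libraries and 0.051 ± 0.564 in the HSC-labelled ones (SD, n = 5 each), a difference of -1.35 (exact permutation test, two-sided, adjusted p = 0.0212 over 8 pairs). The raw p of 0.00794 is the smallest that 5 against 5 libraries allow. Tlr1 minus Tlr6 averaged -0.068 ± 0.256 in the LSC-labelled and 0.72 ± 0.291 in the HSC-labelled libraries (exact permutation test, adjusted p = 0.0212), with LSC-labelled values on both sides of 0 and all 5 HSC-labelled ones above 0. Tlr6 minus Tlr2 averaged -1.23 in the LSC-labelled and -0.67 in the HSC-labelled libraries (exact permutation test, adjusted p = 0.0317), and leaving out any of 8 single libraries raised that adjusted p to 0.0635.

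**Figure D2:**
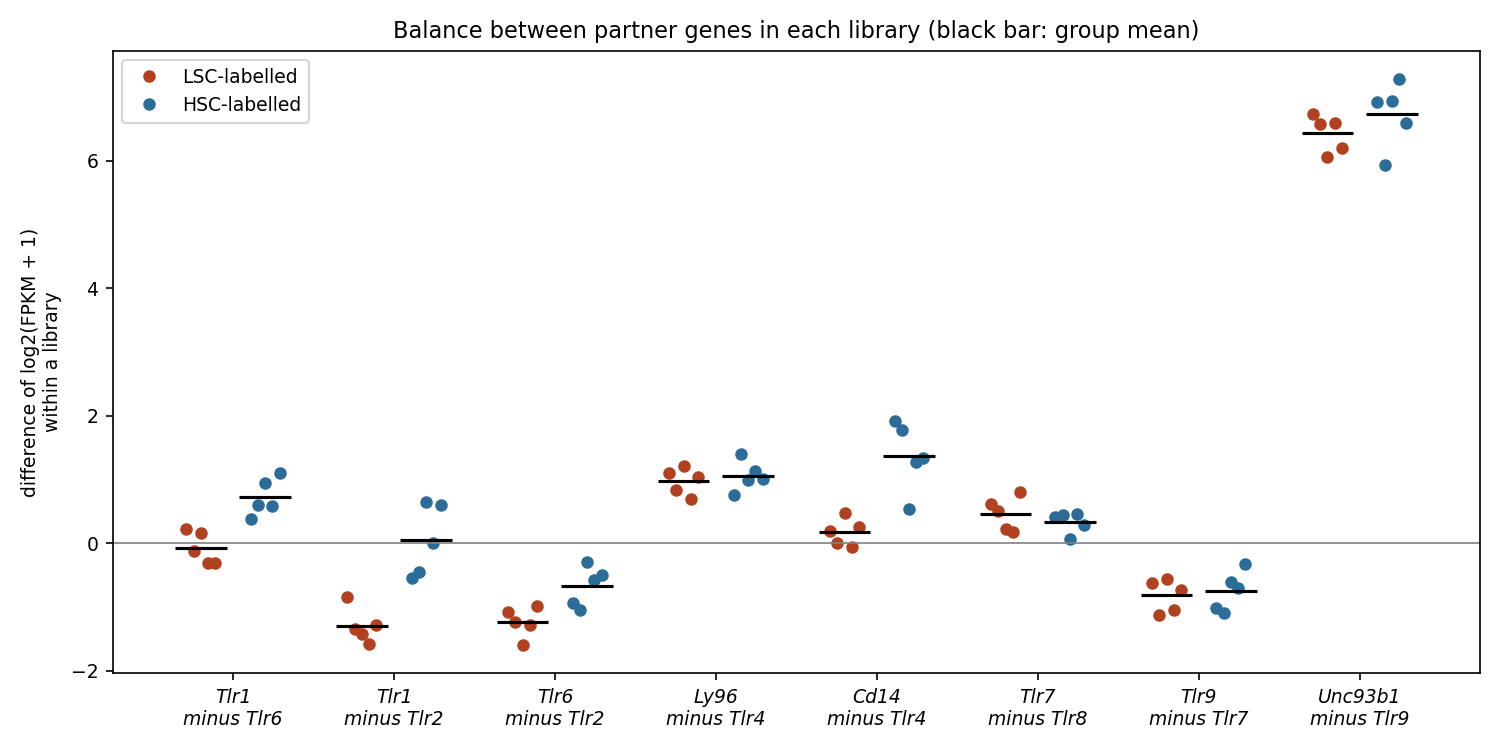
Difference in log2(FPKM + 1) between 2 partner genes within each library (dots), with the mean of each group as a black bar and LSC-labelled libraries left of HSC-labelled ones. Tlr1 minus Tlr6, Tlr1 minus Tlr2 and Cd14 minus Tlr4 show no overlap between the groups, while Ly96 minus Tlr4 and the pairs of endosomal receptors overlap.

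Tlr4 is the receptor for lipopolysaccharide, which it binds together with Ly96, after Cd14 has handed the lipid over. Tlr4 (ENSMUSG00000039005, chromosome 4, 66827584 to 66930284, plus strand) had 4.19, 4.18, 3.35, 5.25 and 3.55 FPKM in the LSC-labelled libraries, against 5.11, 3.40, 3.98, 2.46 and 4.28 FPKM in the HSC-labelled ones. The groups overlapped almost wholly, and the log2 fold change was 0.088 (95% interval -0.26 to 0.43, limma adjusted p = 0.687). Its sign turned to -0.021 with median-of-ratios scaling. Ly96 stood at 8.97 ± 0.775 FPKM in the LSC-labelled and 9.03 ± 1.497 FPKM in the HSC-labelled libraries (SD, n = 5 each) and was not called either (limma adjusted p = 0.991).

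Cd14, by contrast, fell. The gene (ENSMUSG00000051439, chromosome 18, 36725067 to 36726798, minus strand) had 4.92, 4.21, 5.02, 5.03 and 4.41 FPKM in the LSC-labelled libraries, against 21.997, 14.1, 6.22, 7.36 and 12.4 FPKM in the HSC-labelled ones. The LSC-labelled values were all below the HSC-labelled ones and lay close together, with a coefficient of variation of 8.05%, against 50.7% in the HSC-labelled libraries. The log2 fold change was -1.11 (SE 0.266, limma adjusted p = 0.00636), and it was called in all 21 alternatives, with values of -1.55 to -0.71. Cd14 minus Tlr4 within a library averaged 0.17 ± 0.207 in the LSC-labelled and 1.37 ± 0.540 in the HSC-labelled libraries (SD, n = 5 each; exact permutation test, adjusted p = 0.0212), whereas Ly96 minus Tlr4 averaged 0.97 in the LSC-labelled and 1.06 in the HSC-labelled ones (exact permutation test, adjusted p = 0.644).

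Among the endosomal receptors, Tlr13, which in mice senses bacterial ribosomal RNA, was called. Tlr13 (ENSMUSG00000033777, X chromosome, 106143204 to 106160493, plus strand) had 2.97, 3.47, 4.18, 3.63 and 2.18 FPKM in the LSC-labelled libraries, against 4.60, 17.0, 5.12, 5.45 and 7.49 FPKM in the HSC-labelled ones. No values overlapped, but HSC-labelled replicate 2 stood at 2.28 times the next highest. The log2 fold change was -0.93 (SE 0.288, limma adjusted p = 0.0235), and without that library it was -0.64 (limma adjusted p = 0.00938).

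Tlr7 and Tlr8, which sense single-stranded RNA and its fragments, are neighbours on the X chromosome on the minus strand, Tlr8 (ENSMUSG00000040522) at 167242696 to 167264329 and Tlr7 (ENSMUSG00000044583) at 167304929 to 167330558. Tlr7 had 2.09, 1.83, 2.16, 1.88 and 2.46 FPKM in the LSC-labelled libraries, against 3.65, 5.62, 1.43, 1.69 and 2.61 FPKM in the HSC-labelled ones. The HSC-labelled values lay on both sides of the LSC-labelled ones. Tlr8 had 1.02, 0.982, 1.70, 1.56 and 0.988 FPKM in the LSC-labelled libraries, against 2.48, 3.84, 1.31, 0.946 and 1.96 FPKM in the HSC-labelled ones. Neither was called, with log2 fold changes of -0.28 (95% interval -0.80 to 0.25, limma adjusted p = 0.378) for Tlr7 and -0.41 (-0.90 to 0.086, adjusted p = 0.172) for Tlr8. HSC-labelled replicates 1 and 2 were the highest of their group for both genes, and replicates 3 and 4 the lowest. Without replicates 1 and 2 the value for Tlr7 was 0.10, and without replicates 3 and 4 it was -0.64 and called (limma adjusted p = 0.0227), as was Tlr8 at -0.73 (adjusted p = 0.0149). Within a library, Tlr7 minus Tlr8 averaged 0.47 ± 0.265 in the LSC-labelled and 0.34 ± 0.164 in the HSC-labelled libraries (exact permutation test, adjusted p = 0.518).

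Tlr9, the receptor for unmethylated CpG DNA, was the lowest of the 10 genes in both groups. Tlr9 (ENSMUSG00000045322, chromosome 9, 106222598 to 106226883, plus strand) had 1.01, 0.297, 1.14, 0.395 and 1.09 FPKM in the LSC-labelled libraries, against 1.29, 2.096, 0.596, 0.649 and 1.87 FPKM in the HSC-labelled ones. LSC-labelled replicates 2 and 4 were the lowest of all 10 libraries, and the groups overlapped. The log2 fold change was -0.34 (95% interval -0.84 to 0.15, limma adjusted p = 0.250) and -0.74 with a pseudocount of 0.01, which was not called. Without HSC-labelled replicates 3 and 4 it was -0.64 and called (limma adjusted p = 0.0386). Its values corresponded to an estimated 66 to 279 reads in the LSC-labelled and 55 to 404 reads in the HSC-labelled libraries, if the smallest step between low values is 1 read, which the sources used here do not state.

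Myd88, the adaptor through which all 8 of these receptors signal, was the most abundant of the 10 genes in every library. Myd88 (ENSMUSG00000032508, chromosome 9, 119335934 to 119341411, minus strand) had 29.6, 30.7, 33.6, 31.9 and 30.7 FPKM in the LSC-labelled libraries, against 31.0, 36.4, 32.8, 24.3 and 36.1 FPKM in the HSC-labelled ones. The LSC-labelled values all lay within the range of the HSC-labelled ones. The log2 fold change was -0.023 (95% interval -0.26 to 0.22, limma adjusted p = 0.886). Over the alternatives it ran from -0.16, with median-of-ratios scaling, to 0.029, and was never called.

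**Figure D3:**
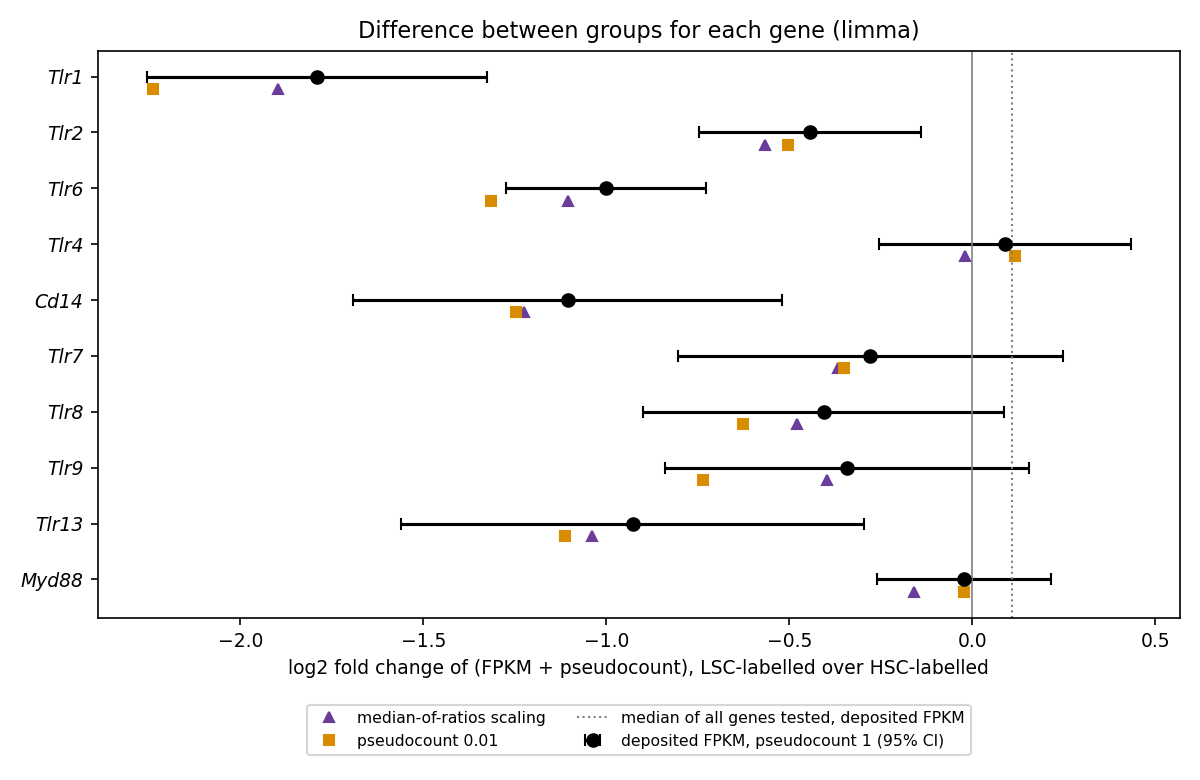
Log2 fold change of each gene, LSC-labelled over HSC-labelled (black circle, limma, with its 95% confidence interval), beside the values with median-of-ratios scaling (triangles) and with a pseudocount of 0.01 (squares). The dotted line marks the median of all genes tested, 0.11, and the intervals of Tlr1, Tlr2, Tlr6, Tlr13 and Cd14 lie wholly below 0.

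The order of the levels differed between the groups. In the LSC-labelled libraries Myd88 (31.3 FPKM) was followed by Tlr2 (6.19), Cd14 (4.72), Tlr4 (4.10), Tlr13 (3.29), Tlr7 (2.08), Tlr6 (2.07), Tlr1 (1.93), Tlr8 (1.25) and Tlr9 (0.787). In the HSC-labelled libraries Myd88 (32.1 FPKM) was followed by Cd14 (12.4), Tlr1 (9.56), Tlr2 (8.88), Tlr13 (7.94), Tlr6 (5.17), Tlr4 (3.85), Tlr7 (2.997), Tlr8 (2.11) and Tlr9 (1.30). There, from Cd14 down, the mean ± SD of each gene overlapped that of the next. In the LSC-labelled order the mean ± SD did not overlap between Myd88 and Tlr2, Tlr2 and Cd14, and Tlr13 and Tlr7, and overlapped between all other neighbours.

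The HSC-labelled libraries also differed among themselves. Replicate 2 was the highest of its group for 6 of the 10 genes (Tlr2, Tlr7, Tlr8, Tlr9, Tlr13 and Myd88) and replicate 4 the lowest for 4. The 8 receptors summed to between 19.6 and 24.3 FPKM in the LSC-labelled libraries and between 29.9 and 58.4 FPKM in the HSC-labelled ones, the highest again in replicate 2. That library also had the highest sums of erythroid and megakaryocyte markers in its group, at 1571 and 263 FPKM, where the other HSC-labelled libraries lay at or below 207.7 and 80.5 FPKM. Its neutrophil marker sum was the highest of its group, at 3197 FPKM, and its monocyte and macrophage marker sum the lowest, at 793 FPKM. In the LSC-labelled libraries, where the receptor sums were lower, the erythroid and megakaryocyte sums were 1344 to 2879 and 755 to 1229 FPKM. The part of these markers in the levels of the receptors was not tested.

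**Figure D4:**
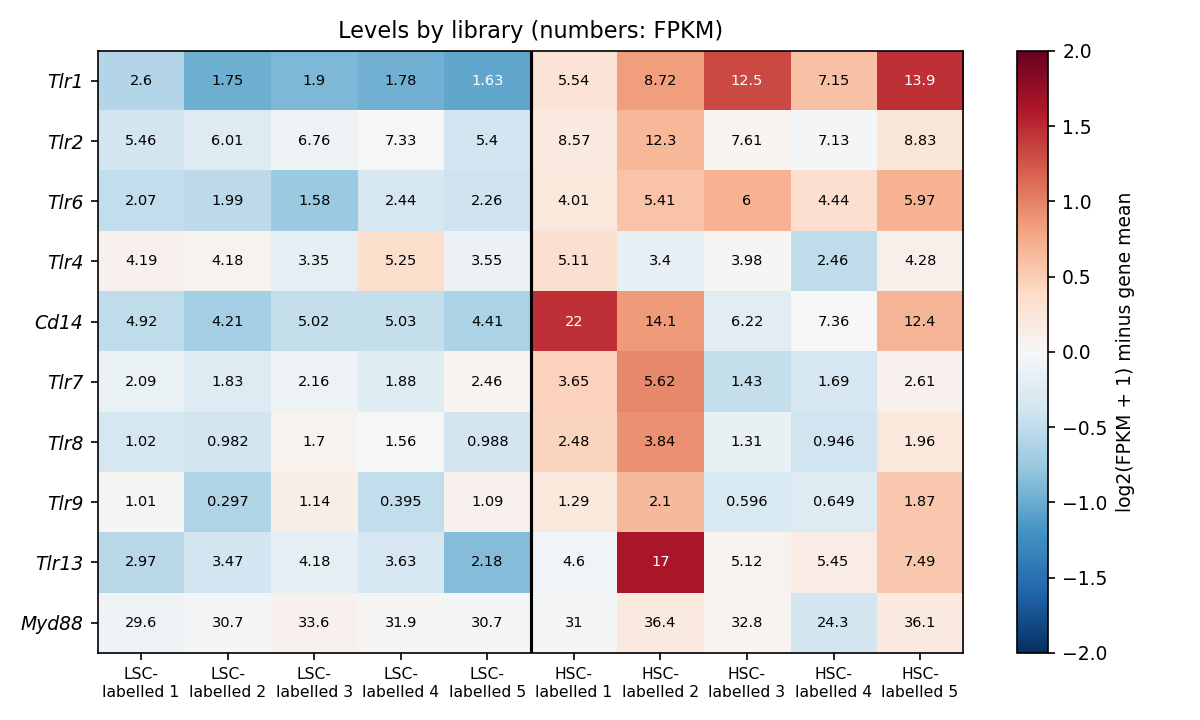
Levels of the 10 genes in the 5 LSC-labelled (left) and 5 HSC-labelled libraries (right), with colour for log2(FPKM + 1) minus the mean of the gene over all libraries and the FPKM printed in each cell. Tlr1 and Tlr6 are low throughout the LSC-labelled columns, and HSC-labelled library 2 is the highest for Tlr13, Tlr7, Tlr8 and Tlr9.

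Marker genes of cells that carry these receptors differed between the groups. Of 9 monocyte and macrophage markers 5 were lower in the LSC-labelled libraries and 0 higher by limma (also 0 at an unadjusted p under 0.05), and their summed level ranged from 706 to 1144 FPKM there and from 793 to 1705 FPKM in the HSC-labelled libraries. Adgre1, which encodes the macrophage protein F4/80, averaged 11.6 ± 1.59 FPKM in the LSC-labelled and 37.1 ± 7.57 FPKM in the HSC-labelled libraries (SD, n = 5 each). It had the largest fall of the 9 and was picked after its values were seen. C1qa went the other way, at 85.7 ± 24.3 FPKM in the LSC-labelled and 53.9 ± 31.0 FPKM in the HSC-labelled libraries. Like Csf1r, Ly6c2 and Cx3cr1, C1qa was not called. Neutrophil markers went the other way, with 8 of 9 higher, and sums of 1708 to 19685 FPKM in the LSC-labelled and 587 to 3197 FPKM in the HSC-labelled libraries. Dendritic cell markers had 6 of 10 higher and B cell markers 4 of 5 tested. Among all genes tested 27.2% were called higher and 13.8% lower. None of the markers in these 4 lists was at 0 in a whole group. The part of any of these cells in the differences was not tested.

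Of the other 4 mouse Toll-like receptor genes only Tlr12, which in mice senses profilin of protozoa, passed the filter. It was higher, at 1.82 ± 0.549 FPKM in the LSC-labelled and 0.379 ± 0.186 FPKM in the HSC-labelled libraries (SD, n = 5 each), with no overlap (log2 fold change 1.02, SE 0.147, limma adjusted p = 0.000263). It passed the filter only through the LSC-labelled libraries, where it was at least 1.37 FPKM, against at most 0.609 FPKM in the HSC-labelled ones, so that it had to differ and its call is a description. Tlr3, the receptor for double-stranded RNA that signals through Ticam1 and not Myd88, averaged 0.757 FPKM in the LSC-labelled and 0.455 FPKM in the HSC-labelled libraries, under the filter and not tested. Tlr5, the receptor for flagellin, averaged 0.192 FPKM in the LSC-labelled and 0.465 FPKM in the HSC-labelled libraries, and Tlr11 averaged 0.577 FPKM in the LSC-labelled and 0.390 FPKM in the HSC-labelled libraries, likewise not tested.

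Genes of proteins that fold, carry, assist or process the receptors were lower for the most part. Of 15 such genes, all tested, 9 were lower, 2 higher and 4 not called, with a median log2 fold change of -0.48, beside 13.8% lower, 27.2% higher and a median of 0.11 for all genes. Unc93b1, which carries the endosomal receptors out of the endoplasmic reticulum, averaged 153 ± 35.8 FPKM in the LSC-labelled and 237 ± 43.7 FPKM in the HSC-labelled libraries (log2 fold change -0.64, limma adjusted p = 0.00977), but missed the threshold without LSC-labelled replicates 3 and 4 (adjusted p = 0.0734). Ly86 fell to 32.2 ± 4.46 FPKM in the LSC-labelled libraries, against 64.6 ± 18.7 FPKM in the HSC-labelled ones (limma adjusted p = 0.00197). Cd180, the Toll-like surface protein that Ly86 binds, averaged 2.86 ± 0.215 FPKM in the LSC-labelled and 5.80 ± 1.04 FPKM in the HSC-labelled libraries (limma adjusted p = 0.0002625). Ctsb, a cathepsin of endosomes and lysosomes, averaged 154 ± 22.2 FPKM in the LSC-labelled and 277 ± 47.6 FPKM in the HSC-labelled libraries (limma adjusted p = 0.00085). Cd36, a scavenger receptor that helps Tlr2 and Tlr6, was higher, at 3.57 ± 0.806 FPKM in the LSC-labelled and 1.54 ± 1.035 FPKM in the HSC-labelled libraries (limma adjusted p = 0.0121). It lost its call without HSC-labelled replicates 1 and 2 (adjusted p = 0.05401) and without LSC-labelled replicates 3 and 4 (adjusted p = 0.0665). Over the alternatives 5 to 9 of the list were lower and 1 or 2 higher.

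Of 28 genes that act between the receptors and the nucleus 27 were tested, and 5 were lower, 1 higher and 21 not called, with a median of -0.068. Over all genes tested 13.8% were lower, 27.2% higher and the median was 0.11. Irf5 and Irf7, the interferon regulatory factors that act after Myd88, moved in opposite directions. Irf7 had the largest rise of the list, at 56.3 ± 21.0 FPKM in the LSC-labelled and 5.64 ± 1.47 FPKM in the HSC-labelled libraries (SD, n = 5 each; log2 fold change 3.04, limma adjusted p = 1.1e-05), while Irf5 fell to 18.5 ± 4.19 FPKM in LSC-labelled libraries, against 59.7 ± 20.5 FPKM in HSC-labelled ones (log2 fold change -1.60, adjusted p = 0.000167). Irak4, the kinase that binds Myd88, averaged 16.7 ± 1.28 FPKM in the LSC-labelled and 25.2 ± 2.34 FPKM in the HSC-labelled libraries (log2 fold change -0.56, limma adjusted p = 0.000468). Tirap, the bridge from Tlr2 and Tlr4 to Myd88, averaged 4.44 ± 0.604 FPKM in the LSC-labelled and 6.19 ± 0.547 FPKM in the HSC-labelled libraries (log2 fold change -0.41, limma adjusted p = 0.00689). The groups did not overlap for Irak4 or Tirap. Over the alternatives 3 to 9 members were lower and 1 to 3 higher.

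Of 15 genes that restrain the pathway 13 were tested, and 3 were lower, 1 higher and 9 not called, with a median of 0.16. For all genes the shares were 13.8% lower and 27.2% higher, and the median was 0.11. Over the alternatives 2 to 5 were lower and 0 to 3 higher, and either scaling of the libraries gave 5 lower and 0 higher. Tnip1, which works with the deubiquitinase Tnfaip3, fell to 14.7 ± 3.74 FPKM in the LSC-labelled libraries, against 25.7 ± 4.45 FPKM in the HSC-labelled ones (SD, n = 5 each; log2 fold change -0.78, limma adjusted p = 0.00270). Cd300a, an inhibitory surface receptor, averaged 17.0 FPKM in the LSC-labelled and 23.7 FPKM in the HSC-labelled libraries (limma adjusted p = 0.0169), and lost its call without the filter (adjusted p = 0.0541) and without LSC-labelled replicates 3 and 4 (adjusted p = 0.0895). Nfkbie, an inhibitor of NF-kappa-B, was higher, at 7.21 FPKM in the LSC-labelled and 5.03 FPKM in the HSC-labelled libraries (limma adjusted p = 0.0365), a call lost in 9 of 21 alternatives.

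Of 17 inflammatory target genes 10 were tested, with 5 higher, 1 lower and 4 not called, and a median of 0.58, beside 27.2% higher, 13.8% lower and a median of 0.11 over all genes. Ccl5, a chemokine also made by T and NK cells, averaged 30.1 ± 8.79 FPKM in the LSC-labelled and 4.55 ± 2.24 FPKM in the HSC-labelled libraries (log2 fold change 2.52, limma adjusted p = 3.766e-05). Il1b, the cytokine interleukin 1 beta, averaged 7.74 ± 4.46 FPKM in the LSC-labelled and 1.18 ± 0.693 FPKM in the HSC-labelled libraries (log2 fold change 1.90, limma adjusted p = 0.000937), with its highest value of 14.5 FPKM in LSC-labelled replicate 3, 1 of the 2 libraries with the highest neutrophil markers. Ccl4, a chemokine of monocytes and lymphocytes, averaged 41.9 FPKM in the LSC-labelled and 18.1 FPKM in the HSC-labelled libraries (limma adjusted p = 0.0218) and lost its call in 5 of 21 alternatives. Tnf, which encodes tumour necrosis factor, was the member that fell, at 2.73 ± 0.977 FPKM in the LSC-labelled and 4.90 ± 0.949 FPKM in the HSC-labelled libraries (limma adjusted p = 0.0146), and was picked here as the single member in that direction after its values were seen. Over the alternatives 2 to 5 were higher and 0 to 2 lower.

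**Figure D5:**
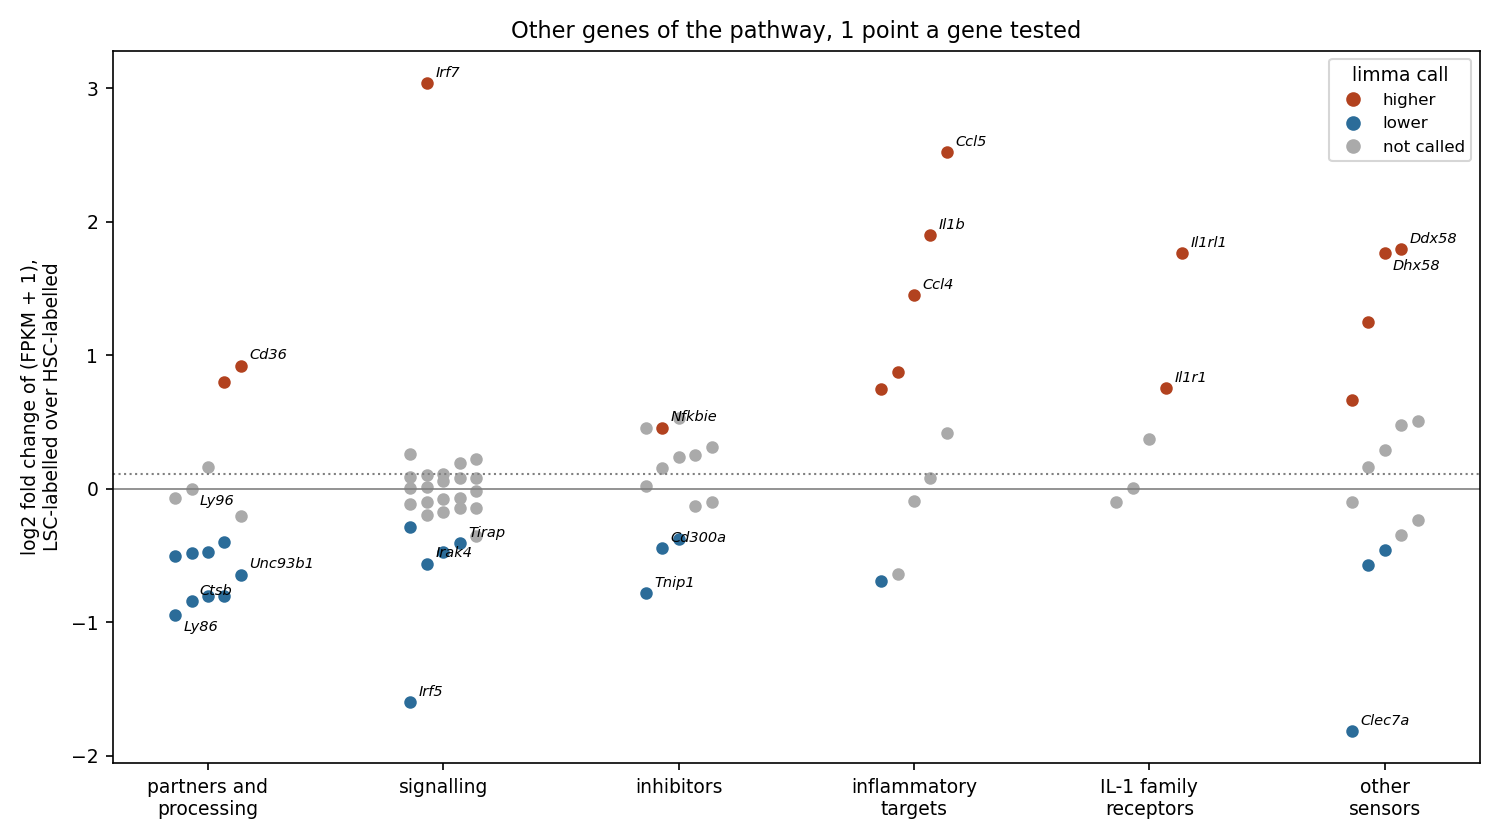
Log2 fold change of (FPKM + 1), LSC-labelled over HSC-labelled, for each tested gene of 6 lists around the Toll-like receptors (1 point a gene), coloured by the limma call. Most partners and processing genes lie below 0, most signalling genes near the dotted line of all genes (0.11), and Irf7 and Irf5 stand at 3.04 and -1.60.

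Receptors of the interleukin 1 family share Myd88 with the Toll-like receptors. Of 6 genes 5 were tested, with 2 higher, where 27.2% of all genes were, and 3 not called. Il1rl1, the receptor for interleukin 33, averaged 5.18 ± 0.856 FPKM in the LSC-labelled and 0.917 ± 0.857 FPKM in the HSC-labelled libraries (SD, n = 5 each; limma adjusted p = 0.000132), and Il1r1, the receptor for interleukin 1, averaged 1.60 ± 0.0536 FPKM in the LSC-labelled and 0.555 ± 0.232 FPKM in the HSC-labelled libraries (limma adjusted p = 0.000272). Both genes passed the filter only through the LSC-labelled libraries, so the 2 higher calls are descriptions. Every HSC-labelled value of Il1r1 was at most 0.961 FPKM, and Il1rl1 reached 1 FPKM there only in replicate 2, at 2.43 FPKM. Basophil and mast cell markers, whose cells carry Il1rl1, were higher in the same libraries for 6 of 7 genes, with sums of 1107 to 2437 FPKM in the LSC-labelled and 69.1 to 316 FPKM in the HSC-labelled libraries, and their part in this difference was not tested.

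Of 16 genes of other innate sensors 14 were tested, with 4 higher, 3 lower and 7 not called, beside 27.2% higher and 13.8% lower over all genes, so that the share of higher genes was near that of all genes. The cytoplasmic RNA sensors were among the higher ones, with Ddx58, which encodes RIG-I, at 13.7 ± 3.94 FPKM in the LSC-labelled and 3.14 ± 0.482 FPKM in the HSC-labelled libraries (SD, n = 5 each; log2 fold change 1.80, limma adjusted p = 1.825e-05). Dhx58, of the same group of RNA sensors, stood at 32.3 ± 12.7 FPKM in the LSC-labelled and 8.36 ± 2.25 FPKM in the HSC-labelled libraries (log2 fold change 1.77, limma adjusted p = 0.000342). Clec7a, which encodes the beta-glucan receptor dectin-1, fell to 11.4 ± 1.49 FPKM in the LSC-labelled libraries, against 42.8 ± 7.30 FPKM in the HSC-labelled ones (log2 fold change -1.81, adjusted p = 2.439e-06).

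For each of the 10 genes, the genes with the most similar profile were taken as those whose log2(FPKM + 1), centred on its own mean, had the smallest root-mean-square difference over the 10 libraries, among 10956 named genes. For Tlr1 these were Tep1, Pkib and Chst13 (0.19 each on the log2 scale) and for Tlr6 Mical2, Chd9 and Adss (0.11, 0.12 and 0.12). For Cd14 they were Ccl2, Hcst and Ptafr (0.21, 0.22 and 0.24), and for Tlr13 Atp1b3, Il13ra1 and Aph1c (0.21, 0.24 and 0.24). No other of the 10 genes was among the 3 nearest of any of them. The difference between the groups is part of every profile, so genes of like difference lie near each other by this measure.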

How the data were processed

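RNA was isolated with miRNeasy columns, its mRNA copied and amplified by Geo-seq, and TruePrep libraries made from it, per the labels' protocols. The authors deposited 1 table of FPKM values. Per the submitters' processing notes mm10 was used, and DESeq2, HTSeq, Cufflinks 2.1.1 and Bowtie 0.12.9 are listed without their roles. Strandedness, annotation release and handling of shared reads: not given in the sources used here. Low genes can vary more after such amplification.

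Symbols and coordinates came from GENCODE M21, which matched 51246 of 51456 IDs. Depth was read from the steps of low values: in genes with 1 annotated transcript, 99.5% to 99.6% of values under 80 steps were whole within 0.05 of a step. This gave an estimated 33581779 to 70557198 reads in the LSC-labelled and 26546067 to 55426090 in the HSC-labelled libraries. A step was taken as 1 read, which no source used here states, and if it is part of a fragment the depth in fragments is lower in proportion. Lengths used for other genes are unknown, so whole reads were not recovered for nearly all genes and no count test was run.

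A filter of 1 FPKM in 5 or more libraries was applied, and limma tested log2(FPKM + 1), using limma 3.58.1 in R 4.3.3 (mean trend, two-sided, Benjamini-Hochberg over 13431 genes, threshold 0.05). The fit was tested on simulated data. Partner pairs were compared by exact permutation of libraries with scipy 1.17.1, adjusted over 8 pairs. None of the 10 genes fell under the filter, so the permutation test planned for such genes was not used. Alternatives were other pseudocounts, filters and scalings, no mean trend, a replicate block, and left-out libraries. The 10 genes and all lists were chosen with earlier results of these data known. Named in each list were the 3 called genes with the largest change, given 1 FPKM or more in the higher group's mean, along with Ly96, Unc93b1, Tirap, Irak4 and Tlr3. Cd180, Adgre1, Hoxa9, the sort genes, Procr, Hlf, Tlr5 and Tlr11 were added after values were seen.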

Additional observations from a re-analysis of the deposited data

Results flagged for a closer look

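In each gene and group, the gap between the most extreme library and the next, divided by the range of the 5, was compared with Dixon's 95% critical value of 0.71. This was done for 20 sets of 5 values, of which chance alone flags about 1 in 20, and 2 passed. Tlr13 in HSC-labelled replicate 2 stood at 17.0 FPKM, against 7.49 FPKM in the next library, a gap of 0.768 of the range. Tlr1 in LSC-labelled replicate 1 stood at 2.60 FPKM, against 1.90 FPKM in the next, a gap of 0.722 of the range, and it still lay below every HSC-labelled value.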

How the results depend on the processing

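Of the 10 genes, 5 were called lower and 0 higher with other pseudocounts, with both scalings, without the mean trend and without LSC-labelled replicates 3 and 4, an alternative chosen after seeing the data. The count of lower genes was 3 without the filter and 3 of the 4 genes left with a filter of 5 FPKM, 8 without HSC-labelled replicates 3 and 4, and 3 to 5 with 1 library left out. Over all genes, the 1859 lower calls became 1195 with the stricter filter and 2833 with quantile normalization. Replicate numbers are shared by the groups. Deviations of same-numbered libraries from their group means had correlations of -0.290 to 0.225, with 2 of 5 at or below 0.1. So few values cannot show whether same-numbered libraries were paired or handled together. With a replicate block 4 of the 10 genes and 5155 of all genes were called, and Tlr2 was not (adjusted p = 0.0546).

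Among the 10 genes, Ly96 and the 8 pairs, changes of sign occurred only in genes and pairs not called on the deposited values. Tlr4 stood at -0.021 with median-of-ratios scaling, -0.030 with quantile normalization and -0.044 without HSC-labelled replicates 3 and 4, and between -0.027 and 0.18 with 1 library left out. Without HSC-labelled replicates 1 and 2 Tlr7 stood at 0.10 and Myd88 at 0.029, and Myd88 ran from -0.12 to 0.025 with 1 library left out. Ly96 stood at -0.12 and -0.13 with the 2 scalings, -0.13 without HSC-labelled replicates 3 and 4 and -0.011 without LSC-labelled replicates 3 and 4, and ran from -0.094 to 0.059 with 1 library left out. Of the pairs, Unc93b1 minus Tlr9 differed by 0.011 and 0.090 with pseudocounts of 0.1 and 0.01, and Tlr9 minus Tlr7 by -0.15 to 0.041 with 1 library left out. The cause of these changes of sign was not tested. Tlr6 minus Tlr2 was under the threshold on the deposited values and kept its sign, at -0.65 to -0.46 with 1 library left out. Depth was estimated for Tlr9, the lowest gene, at 55 reads in the library with the fewest, if a step is 1 read.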

Other observations

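Tlr7, Tlr8 and Tlr13 lie on the X chromosome, so the sex-linked genes were read beside them. Xist was at or below 0.06 FPKM in every library. Ddx3y, a Y-linked gene, stood at 15.4 to 20.7 FPKM in the LSC-labelled libraries, and in the HSC-labelled ones at 4.31 FPKM in replicate 1 and 17.5 to 20.4 FPKM in the other 4. Eif2s3y, also Y-linked, stood at 21.5 to 26.6 FPKM in the LSC-labelled libraries and at 24.1 FPKM in HSC-labelled replicate 2, with 1.90 to 5.71 FPKM in the other 4 HSC-labelled libraries. Kdm5d and Uty, likewise Y-linked, were lowest in HSC-labelled replicate 1, at 0.732 and 1.54 FPKM. In the other HSC-labelled libraries Kdm5d stood at 2.58 to 3.53 FPKM and Uty at 6.07 to 6.79 FPKM. Of these Y-linked genes, only Eif2s3y set HSC-labelled replicate 2 apart from its group. HSC-labelled replicate 2 was also the library with the highest Tlr7, Tlr8 and Tlr13, and whether the 2 patterns are linked was not tested.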
